A study of Mus musculus with 19 samples.

Results

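The collagen genes were described here: every gene whose symbol is Col, a number, a and a number. Of 44 such genes in the RefSeq gene table used, 38 matched a probe on the array by accession, and 30 had a probe whose lung signal stood well above background on 4 or more of the 19 arrays. These 30 were among 19315 genes tested. Probes of 8 others were below that filter: Col6a6, Col9a1, Col9a3, Col10a1, Col11a1, Col19a1, Col24a1 and Col28a1. No probe matched Col6a3, Col6a4, Col6a5, Col12a1, Col20a1 or Col22a1, which were not analysed here. Of the 30 genes, 22 were well above background on all 19 arrays. Col26a1 was above it on 4 arrays, Col25a1 on 7, Col15a1 on 11, Col11a2 on 13 and Col9a2 on 16, so their ratios rest partly on dim spots.

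The mice were males of the transgenic MutaMouse strain (40.6 in the labels), aged 25 weeks, that carry a bacterial reporter gene in every cell for scoring mutations. They were gavaged each day for 28 days with BaP (benzo(a)pyrene), a combustion product whose metabolites bind DNA, and a piece of lung was collected 3 days after the last dose. The vehicle controls numbered 5 (mice 1 to 5). The low dose was 25 mg/kg/day (5 mice, numbered 6 to 10), the middle dose 50 mg/kg/day (4 mice, 12 to 15) and the top dose 75 mg/kg/day (5 mice, 16 to 20), with 1 array per mouse. The 3 dose comparisons share the same controls. Lung RNA (Cy5) was hybridised against a commercial reference (Cy3) made from 11 mouse cell lines, and the value given throughout is the log2 ratio of lung over reference. A ratio below 0 says, after normalization, that the cell lines held more of that transcript than the lung. Ratios of different genes do not rank their levels in the lung. The lung was not sorted, so fewer cells of a type and less RNA per cell cannot be told apart.

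Collagens are proteins of 3 chains wound into a triple helix. The fibrillar types, made mostly by fibroblasts, give the lung its tensile strength, and types I and III accumulate in pulmonary fibrosis. Type IV forms the sheet-like network of basement membranes under the alveolar epithelium and the capillary endothelium, where the alpha1 and alpha2 chains (Col4a1 and Col4a2) assemble in nearly all tissues and the alpha3, alpha4 and alpha5 chains (Col4a3, Col4a4 and Col4a5) in a few, the lung and kidney among them. Types XV and XVIII are basement membrane proteins with glycosaminoglycan chains, type VI forms beaded filaments, and types XIII, XVII, XXIII and XXV cross the cell membrane.

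Col4a1 and Col4a2 lie head to head, so 1 stretch of DNA holds both promoters. Their sequences are shown because both chains rose in the trend over dose and moved together between mice. Both windows run from 250 bases before to 50 bases after the start site in RefSeq on GRCm38.p6. Capitals mark the CCAAT box (CCAAT) and the GC box (GGGCGG), searched on both strands, which is why the reverse complements also appear in capitals. The Col4a1 window is chr8:11312777-11313076 on the minus strand and the Col4a2 window is chr8:11312555-11312854 on the plus strand.
Col4a1: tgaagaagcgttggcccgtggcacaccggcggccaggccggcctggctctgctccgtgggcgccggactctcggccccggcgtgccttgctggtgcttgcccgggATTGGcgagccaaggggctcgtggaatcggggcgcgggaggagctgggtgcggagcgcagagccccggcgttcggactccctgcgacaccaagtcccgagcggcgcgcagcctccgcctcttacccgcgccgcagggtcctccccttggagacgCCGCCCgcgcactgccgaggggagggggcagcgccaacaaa
Col4a2: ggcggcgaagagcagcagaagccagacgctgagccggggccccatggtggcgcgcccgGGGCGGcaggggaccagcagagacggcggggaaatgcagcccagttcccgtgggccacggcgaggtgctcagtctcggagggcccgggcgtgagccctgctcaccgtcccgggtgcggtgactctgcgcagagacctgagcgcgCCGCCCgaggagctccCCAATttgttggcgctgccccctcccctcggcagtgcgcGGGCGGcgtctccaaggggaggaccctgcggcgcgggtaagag
The Col4a1 start site, on the minus strand, is at 11312826 and that of Col4a2, on the plus strand, at 11312805. They are 21 bases apart, so the 2 transcripts overlap at their starts, and the windows share 78 bases. The Col4a1 window holds 74.0% G and C and the Col4a2 window 73.7%. Neither holds the TATA box (TATAAA), which 13.6% of 32851 windows of the same length held. CCAAT was in 37.4% of all windows and GGGCGG in 35.7%. Of the 38 windows of 35 collagen genes, 13 held CCAAT and 23 held GGGCGG. The core of the response element of the aryl hydrocarbon receptor, the receptor that BaP binds (GCGTG), was in 10 of the 38 collagen windows, the Col4a1 and Col4a2 windows among them, and in 32.4% of all windows. The SMAD binding element (CAGAC) was in 20 collagen windows and in 49.6% of all windows. A match is a run of letters and no evidence of binding. Col4a5 and Col4a6 lie on opposite strands too, with start sites 1343 bases apart and windows that do not overlap.

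In control lung the collagens divided evenly around the reference: 15 of the 30 had a mean ratio above 0 and 15 below it. The main fibrillar genes were low relative to the cell lines. Col1a1, the alpha1 chain of type I collagen, had a control mean of -2.72 ± 0.34 (SD, n = 5), Col1a2, its alpha2 chain, -1.99 ± 0.33, and Col3a1, the type III chain, -0.66 ± 0.20. The minor fibrillar chains Col5a1 and Col5a2, which set fibril diameter, were at -2.22 ± 0.23 and -1.50 ± 0.26. All 6 type IV chains had control means above 0, from 0.11 ± 0.19 for Col4a5 to 2.11 ± 0.20 for Col4a3. For Col4a6 (0.23 ± 0.13) the median signal above background, before normalization, was 86.6 units in control lung and 102 in the reference. A sign near 0 therefore depends on the normalization. The highest ratio was that of Col13a1, a transmembrane collagen, at 3.40 ± 0.42, and the other genes above 1 were Col4a1, Col4a3, Col8a2, Col14a1, Col17a1 and Col23a1. The reference was well above background on 8 of 19 arrays for Col13a1 and Col17a1 and on 2 for Col4a3 and Col14a1. Its median signal above background was 8.6, 8.7, 6.1 and 4.9 units for these genes, so their ratios rest partly on dim reference spots. The Col17a1 mean, 1.15 ± 1.08, was 0.70 ± 0.43 (n = 4) without control 5. Neighbours in this order often did not differ beyond their spread: Col14a1 (1.81 ± 0.41), Col23a1 (1.80 ± 0.23) and Col4a1 (1.38 ± 0.18) overlapped between mice.

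**Figure D1:**
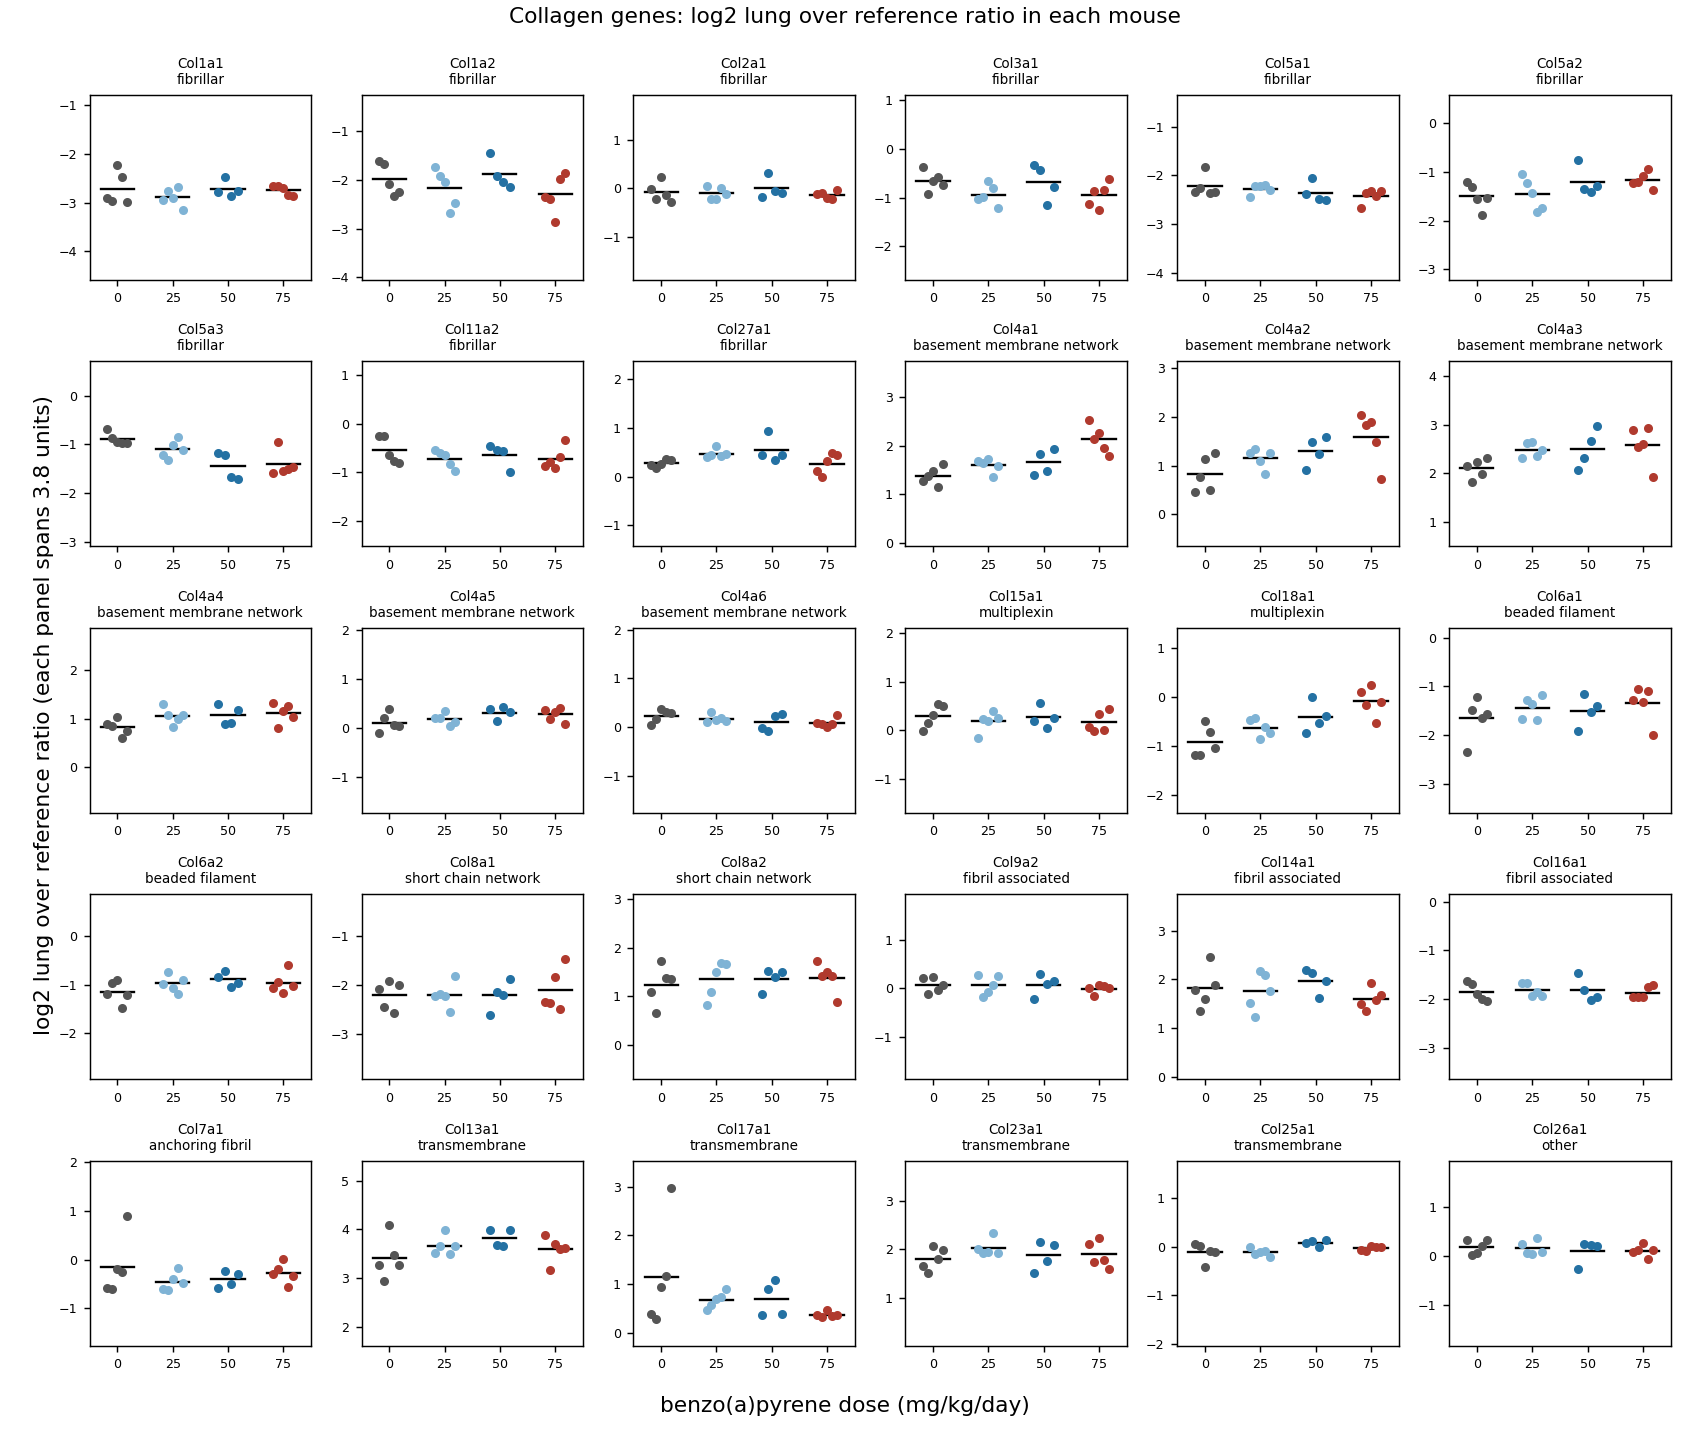
Each panel plots one collagen gene: the log2 lung over reference ratio of each mouse (points) at 0, 25, 50 and 75 mg/kg/day of BaP (x axis), with the group mean as a bar; every y axis spans the same number of log2 units. Col4a1 and Col18a1 climb over the doses, Col5a3 lies lower at the middle and top doses, and a single control at 2.97 sets the spread of Col17a1.

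Most collagens did not pass the test at any dose. Over all 30, the median difference from control was 0.00 at the low dose, 0.09 at the middle dose and -0.01 at the top dose, beside 0.01, -0.00 and -0.01 for all genes. At the low dose 0 of 30 collagens passed limma's adjusted p of 0.05, where 0.0518% of all genes did (0.0414% higher and 0.0104% lower). At the middle dose 0 of 30 passed, where 1.08% did (0.746% higher and 0.337% lower). At an unadjusted p under 0.05 there were 1 and 7 collagens, which is 3.333% and 23.333% of the 30, beside 7.79% and 12.7% of all genes. At the top dose 3 of 30 passed, beside 4.14% of all genes: 2 collagens rose, where 2.64% of all genes did, and 1 fell, where 1.51% did. With median centring of the ratios in place of loess, 531 of the 534 genes that passed at this dose were higher, beside 509 of 800 with loess. At this dose 7 of 30 had an unadjusted p under 0.05, beside 17.3% of all genes. In the linear trend over dose, scaled to the change from 0 to 75 mg/kg/day, 4 of 30 passed, beside 4.64% of all genes: 3 rose (2.82% of all genes) and 1 fell (1.83%). Between the top and low doses 0 of 30 passed (0.549% of all genes, 0.383% higher and 0.166% lower), with 3 at an unadjusted p under 0.05, beside 6.85% of all genes. Groups without overlap were few. All treated mice lay above all controls for 1 collagen at the low dose (0.994% of all genes), 0 at the middle dose (2.54%) and 1 at the top dose (3.05%), and all lay below for 0 (0.456%), 1 (1.96%) and 0 (1.66%). Between the top and low doses 1 collagen was wholly higher (1.33%) and 1 wholly lower (0.906%).

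**Figure D2:**
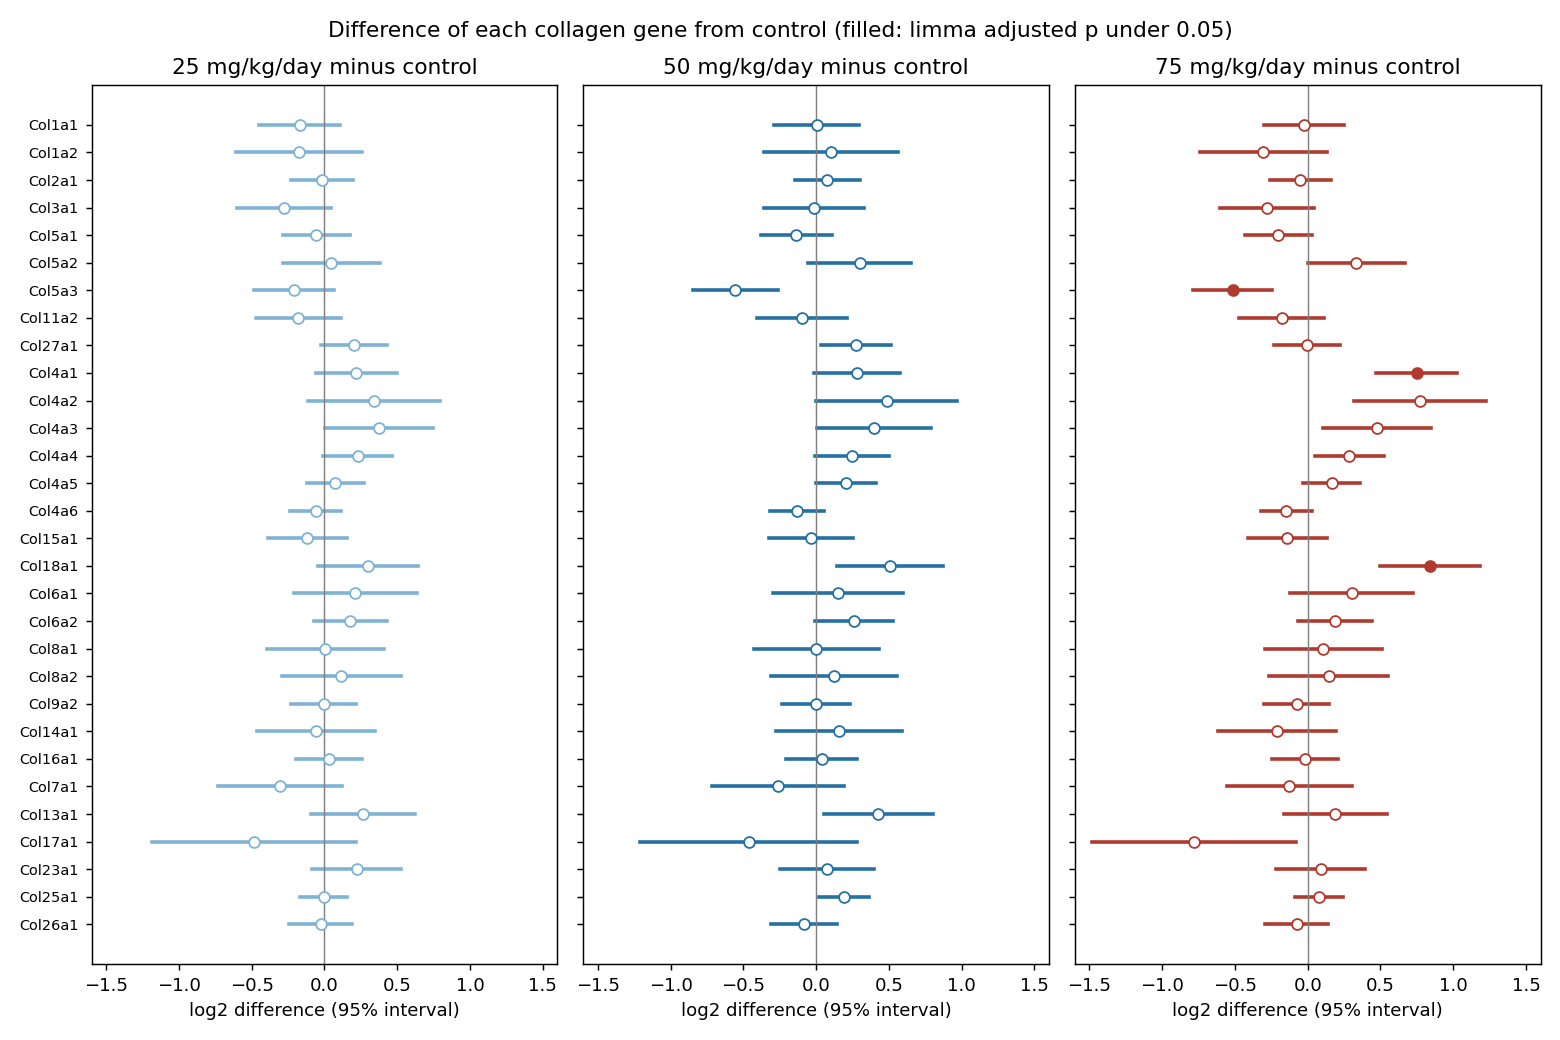
Difference of each of the 30 collagen genes from control (x axis, log2 units) at each dose, with its 95% interval from limma; filled points passed the adjusted p of 0.05. The 3 filled points are Col4a1, Col18a1 and Col5a3 at the top dose, at 0.75, 0.84 and -0.52.

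Col4a1, the alpha1 chain of the common type IV network, rose with dose. The controls 1 to 5 had ratios of 1.28, 1.38, 1.48, 1.15 and 1.62. Mice 6 to 10 at the low dose were at 1.69, 1.65, 1.72, 1.36 and 1.58, and mice 12 to 15 at the middle dose at 1.39, 1.83, 1.49 and 1.94. Mice 16 to 20 at the top dose were at 2.52, 2.13, 2.25, 1.96 and 1.78. All 5 mice at the top dose lay above all 5 controls and above all 5 mice at the low dose. The difference from control was 0.22 ± 0.13 (SE) at the low dose, 0.28 ± 0.14 at the middle dose and 0.75 ± 0.13 at the top dose, where it is a 1.68-fold rise (limma adjusted p = 0.0025). It had this sign on each of the 4 slides carrying controls and top-dose mice, with a mean within slides of 0.71. The trend was 0.70 ± 0.13 (adjusted p = 0.0024). The step from the low to the top dose, 0.53 ± 0.13, did not pass (adjusted p = 0.11), but passed with slide as a block (adjusted p = 0.013). A second Col4a1 probe differed by 0.83 ± 0.19 at the top dose. The reference channel alone differed by 0.00 ± 0.05 for this gene.

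Col4a2, the partner chain of Col4a1, had a difference of like size but a wider spread. The controls were at 0.45, 0.76, 1.15, 0.49 and 1.26, and the mice at the low dose at 1.27, 1.35, 1.11, 0.82 and 1.27. The mice at the middle dose were at 0.90, 1.49, 1.23 and 1.59, and those at the top dose at 2.04, 1.84, 1.89, 1.49 and 0.72. Mouse 20 was the lowest of the top dose and lay among the controls, while the other 4 were above all controls. The difference at the top dose was 0.77 ± 0.22, on the far side of the threshold (adjusted p = 0.051), and the trend was 0.74 ± 0.20 and passed (adjusted p = 0.033). Without mouse 20 the difference at the top dose was 0.99 (adjusted p = 0.0029). With slide as a block it was 0.79 (adjusted p = 0.014). It passed in 14 of 36 alternatives, with adjusted p up to 0.15. The Col4a2 trend passed in 28 of 36 alternatives. It lost its call without control 1, 2 or 4 or without mouse 16, 17, 18 or 19, at 0.64 to 0.76. The call was also lost with no filter on dim probes (0.74, adjusted p = 0.052). The second Col4a2 probe differed by 0.79 ± 0.24 at the top dose. For this gene the reference channel was itself 0.15 ± 0.05 higher in that group (unadjusted p = 0.0076, adjusted p = 1.00), a difference that lowers the ratio.

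Col4a1 and Col4a2 also moved together between mice of the same dose. Over the 19 mice, with each ratio taken as its deviation from the mean of its dose group, Pearson's r was 0.88 (permutation p = 1e-05, the smallest that 100000 permutations can give, adjusted p = 6e-05 over 6 chain pairs) and Spearman's rho was 0.90. It was 0.86 without mice 16 and 20, the farthest from the median, and 0.95 within slides. Col4a2 ranked 3 of 19291 genes in its correlation with Col4a1, a ranking made after the data were seen. With median centring r was 0.97, but there all 6 chain pairs lay between 0.66 and 0.97, so this scaling does not set the pair apart.

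**Figure D3:**
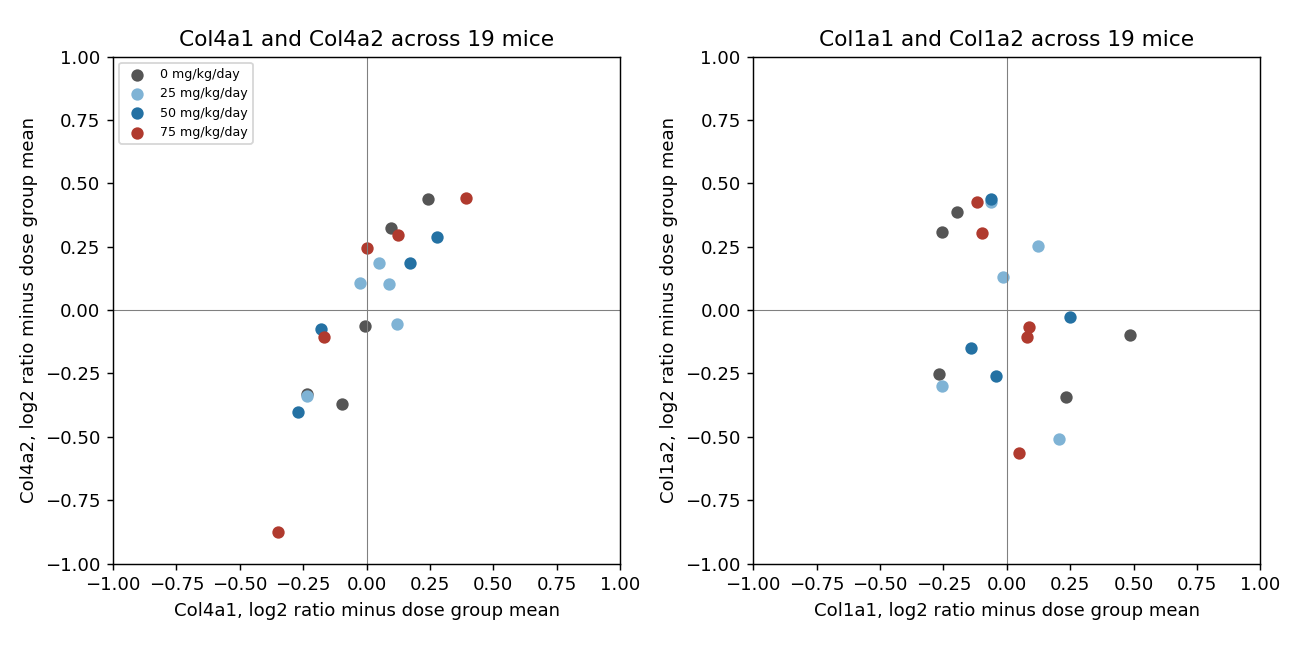
Deviation of each of the 19 mice from the mean of its dose group, in log2 units, for Col4a2 against Col4a1 (left) and Col1a2 against Col1a1 (right), coloured by dose. The type IV pair runs along a line (r = 0.88) and the type I pair does not (r = -0.31).

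The 2 chains of type I collagen, which are assembled in 1 protein, did not follow each other in the same way. Col1a1 and Col1a2 had an r of -0.31 (permutation p = 0.20, adjusted p = 0.40) over the 19 mice, -0.35 without control 3 and mouse 13, 0.56 within slides and 0.86 with median centring, so the sign depends on the processing. Col1a1 was represented by a probe printed 10 times on the array. A second, dimmer Col1a1 probe followed Col1a2 with an r of 0.91 (permutation p = 1e-05, adjusted p = 3e-05 over 9 probe pairs chosen after the data were seen), and 0.87 within slides. The 2 Col1a1 probes had an r of -0.23 with each other, against 0.92 for the 2 Col4a1 probes and 0.92 for the 2 Col4a2 probes. The median lung signal above background in controls was 881 units for the first Col1a1 probe and 129 for the second. The part of signal strength and printed copies in this was not tested. Of the other chain pairs, Col6a1 and Col6a2 had an r of 0.40 (adjusted p = 0.26) and a rho of 0.59 (adjusted p = 0.028), Col4a3 and Col4a4 an r of 0.12, Col5a1 and Col5a2 -0.13 and Col8a1 and Col8a2 0.02.

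The chains of the second type IV network were higher than in controls without passing the test. Col4a3 was at 2.11 ± 0.20 in controls, 2.48 ± 0.15 at the low dose, 2.51 ± 0.39 at the middle dose and 2.58 ± 0.41 at the top dose, a difference of 0.48 ± 0.18 at the top dose (unadjusted p = 0.014, adjusted p = 0.15). Mouse 20, at 1.92, was again the lowest of its group, and without it the difference was 0.64 (adjusted p = 0.019). The difference at the top dose passed in 4 of 36 alternatives, with adjusted p up to 0.93. With Feature Extraction's processed signals the same difference was -0.08. Col4a4 differed by 0.29 ± 0.11 (adjusted p = 0.19) and Col4a5 by 0.17 ± 0.09 (adjusted p = 0.39). Col4a6 was at -0.15 ± 0.08 (adjusted p = 0.39), while a dimmer second probe of that gene was at 0.20 ± 0.08. Of the 6 chains, 5 had a mean above control at each dose, and 1 passed as higher at the top dose, where 2.64% of all genes did. At that dose 4 lay above control with processed signals and 6 with median centring. The median over the 6 was 0.22, 0.26 and 0.38 at the 3 doses. The mean over the 6 chains was 0.20 above the control mean at the low dose, 0.25 at the middle dose and 0.38 at the top dose. Single mice at the top dose ranged from 0.05 above the control mean in mouse 20 to 0.62.

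**Figure D4:**
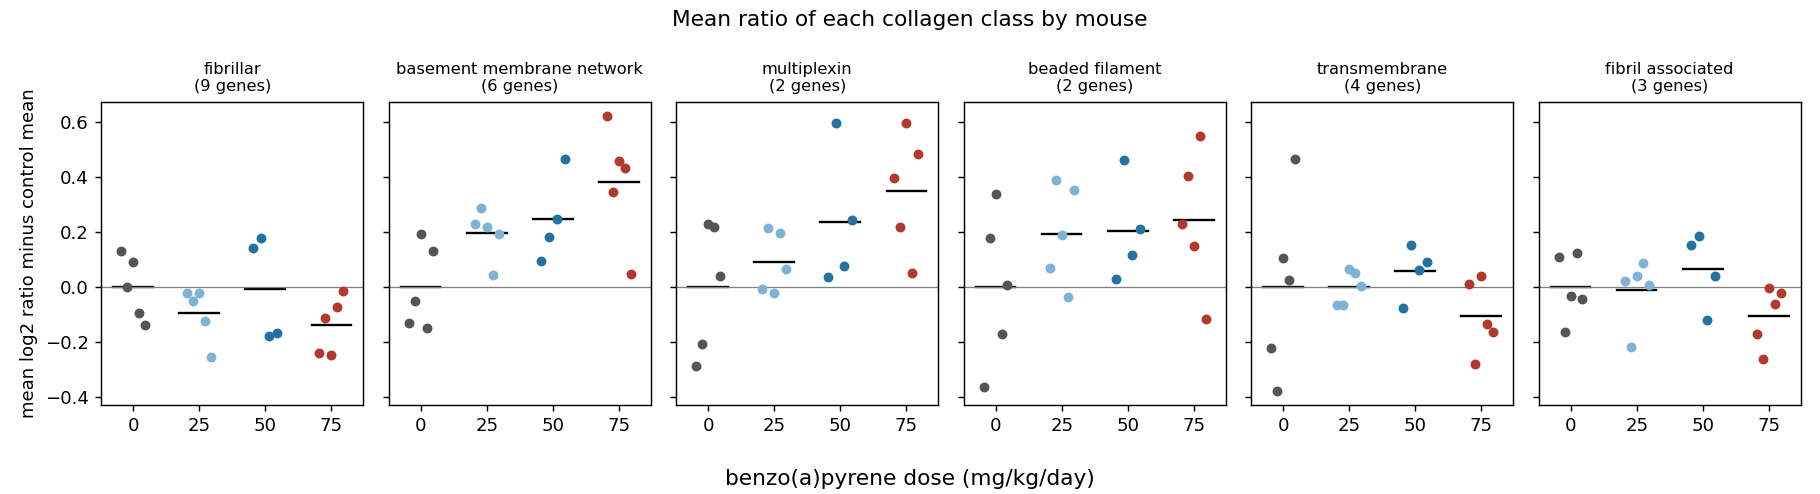
Mean log2 ratio over the genes of 6 collagen classes in each mouse, minus the control mean of that class, by BaP dose; bars are group means. The basement membrane network lies 0.20 to 0.38 above control over the doses, while the fibrillar class stays between -0.14 and 0.00.

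Col18a1, whose C-terminal fragment is the angiogenesis inhibitor endostatin, rose with dose. The controls were at -1.19, -1.19, -0.48, -0.72 and -1.05. The mice at the low dose were at -0.47, -0.43, -0.86, -0.62 and -0.75, those at the middle dose at -0.75, 0.00, -0.52 and -0.40, and those at the top dose at 0.11, -0.17, 0.24, -0.52 and -0.09. Only mouse 19 of the top dose reached down to a control, control 3. The difference was 0.30 ± 0.16 at the low dose, 0.51 ± 0.17 at the middle dose (adjusted p = 0.19) and 0.84 ± 0.16 at the top dose, a 1.79-fold rise (adjusted p = 0.0052) seen on 4 of 4 slides. The trend was 0.82 ± 0.15 (adjusted p = 0.0019). The second Col18a1 probe differed by 0.83 ± 0.13 and the reference channel alone by -0.00 ± 0.05. Col15a1, the other multiplexin, was at -0.14 ± 0.13 (adjusted p = 0.64). Deviations of Col18a1 and Col4a1 had an r of 0.39 (adjusted p = 0.12).

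Of the 9 fibrillar genes 0 rose at the top dose, where 2.64% of all genes did, and 1 fell, Col5a3, where 1.51% did. Col1a1 differed from control by -0.03 ± 0.13 at the top dose (95% interval -0.30 to 0.25, adjusted p = 0.95), and its second probe by -0.27 ± 0.15. Col1a2 differed by -0.30 ± 0.21 (-0.74 to 0.13, adjusted p = 0.49) and Col3a1 by -0.28 ± 0.15 (-0.61 to 0.04, adjusted p = 0.36), with a second Col3a1 probe at 0.07 ± 0.07. Col5a1 was at -0.20 ± 0.11 and Col5a2 at 0.33 ± 0.16 (adjusted p = 0.29). Col5a2 passed as higher with processed signals (0.66, adjusted p = 0.011) and with median centring (0.85, adjusted p = 0.019), and in the trend with these and with the lung channel alone. Of the 9, 1 lay above control at the top dose, and the median was -0.18, beside -0.01 for all genes. With median centring 8 of 9 lay above 0, with a median of 0.44 where the median of all genes was 0.35. In the other settings compared, the fibrillar median lay between -0.31 and -0.05. Col2a1, Col11a2 and Col27a1, chains known from cartilage, differed by -0.05, -0.18 and -0.00 at the top dose.

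Col5a3, the third chain of type V collagen, was the collagen that fell. The controls were at -0.69, -0.88, -0.96, -0.96 and -0.97 and the mice at the low dose at -1.21, -1.31, -1.01, -0.85 and -1.12. The mice at the middle dose were at -1.18, -1.22, -1.67 and -1.70, all below the controls. The mice at the top dose were at -1.58, -0.94, -1.54, -1.50 and -1.47, of which mouse 17 lay among the controls. The ratio fell by 0.52 ± 0.13 at the top dose (adjusted p = 0.029; 3 of 4 slides) and the difference at the middle dose was -0.55 ± 0.14 (adjusted p = 0.062). The trend was -0.56 ± 0.13 (adjusted p = 0.011). This is a dim probe, with a median lung signal above background of 58.2 units in controls, 95.3, 54.9 and 67.8 at the rising doses. The call at the top dose was lost in 13 of 36 alternatives: it was -0.60 with processed signals (adjusted p = 0.10), -0.65 with a normexp offset of 10 (adjusted p = 0.062), -0.05 with median centring (adjusted p = 0.86), where all genes had a median of 0.35, -0.31 in the lung channel alone (adjusted p = 0.25), and -0.46 to -0.51 without control 1, control 2, mouse 16, mouse 18 or mouse 19. It was -0.47 with scan day as a block (adjusted p = 0.053) and -0.45 without the arrays marked by the Feature Extraction quality report (adjusted p = 0.12). With quantile normalization of both channels it was -0.40 (adjusted p = 0.12), and without controls 4 and 5 and mice 13 and 20 -0.55 (adjusted p = 0.061). The trend call was lost in 5 of 36 alternatives.

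Outside the fibrillar, type IV and multiplexin classes 0 genes passed in any comparison. Col6a1 and Col6a2, chains of the beaded filaments, differed by 0.30 ± 0.20 and 0.19 ± 0.12 at the top dose. Col8a1 and Col8a2, the short chain network collagens, were at 0.11 ± 0.19 and 0.14 ± 0.19. Of the fibril-associated genes, Col14a1 was at -0.21 ± 0.19, Col16a1 at -0.02 ± 0.11 and Col9a2 at -0.08 ± 0.11. Col13a1 differed by 0.19 ± 0.17, with its second probe at 0.58 ± 0.15, and at the middle dose by 0.43 ± 0.18 (adjusted p = 0.31). Col23a1, Col25a1 and Col26a1 were at 0.09 ± 0.15, 0.08 ± 0.08 and -0.08 ± 0.10.

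Col17a1 and Col7a1, the hemidesmosome and anchoring fibril collagens of surface epithelia, were highest in the same control, mouse 5. Col17a1 was at 0.39, 0.29, 0.94, 1.17 and 2.97 in controls and at 0.37, 0.33, 0.46, 0.34 and 0.38 at the top dose, a difference of -0.78 ± 0.33 (unadjusted p = 0.031, adjusted p = 0.23). Without control 5 it was -0.32 (adjusted p = 0.33). Col7a1 was at 0.89 in control 5 and between -0.60 and -0.19 in the other 4. In the same array the mean ratio of 10 skeletal muscle markers was 5.18, against a range of -0.54 to 0.39 over the remaining controls. Its part in the result was not tested.

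Most genes that act on collagen did not pass the test. Of 26 genes of collagen modification and processing, such as the prolyl and lysyl hydroxylases and lysyl oxidases, 0 passed at any dose (at the top dose 4 were higher at an unadjusted p under 0.05, as were 1828 of all 19315 genes), and of 6 collagen receptors 0 passed, with 1 higher at that unadjusted p. Of 12 genes of breakdown and its inhibitors, 2 rose at the top dose, where 2.64% of all genes did: Mmp2, the gelatinase that cuts denatured and type IV collagen, by 0.57 ± 0.13 (adjusted p = 0.018) and Prep, a peptidase that cuts short peptides, by 0.29 ± 0.08 (adjusted p = 0.042). The Prep call held in 16 of 36 alternatives and the Mmp2 call in 32.

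Among 12 other basement membrane genes, 1 rose at the top dose, where 2.64% of all genes did. Lamb3, the beta3 chain of epithelial laminin, differed by 0.54 ± 0.12 at the low dose (adjusted p = 0.17) and rose by 0.63 ± 0.12 at the middle dose (adjusted p = 0.016) and 0.66 ± 0.12 at the top dose (adjusted p = 0.0024). Nid1, which links laminin to type IV collagen, rose in the trend by 0.29 ± 0.08 (adjusted p = 0.028) and was at 0.28 ± 0.08 at the top dose (adjusted p = 0.064). The Nid1 trend call held in 26 of 36 alternatives. Of 16 TGF-beta ligands and targets, 3 rose at the top dose, where 2.64% of all genes did. Among them, the ligand Tgfb1 rose by 0.42 ± 0.08 (adjusted p = 0.0059) and its receptor Tgfbr2 by 0.40 ± 0.10 (adjusted p = 0.032), a call that held in 24 of 36 alternatives.

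Of 27 other fibril and elastic matrix genes, 3 fell at the top dose, where 1.51% of all genes did, and 0 rose, where 2.64% did. Mfap2, a microfibril protein, fell by 0.82 ± 0.12 (adjusted p = 0.0004), Fbln2, fibulin 2, by 0.42 ± 0.11 (adjusted p = 0.036) and Thbs2, thrombospondin 2, by 0.40 ± 0.11 (adjusted p = 0.043). The Mfap2, Fbln2 and Thbs2 calls held in 35, 24 and 17 of 36 alternatives. With median centring the 3 differences were -0.27, 0.34 and 0.17, where the median of all genes was itself 0.35. They did not pass there (adjusted p = 0.47, 0.42 and 0.53). Whether they lay below that median was not tested.

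Markers of the cells that make collagens were counted in the same way. Of 14 fibroblast markers 5 fell at the top dose, where 1.51% of all genes did. They were Pi16, Scara5, Cd248, Gsn and Pdgfra, by 0.91, 0.70, 0.63, 0.53 and 0.42. Of the 14, 4 lay above control at that dose, 1 of them at an unadjusted p under 0.05. In the trend 3 of the 14 fell, where 1.83% of all genes did. The Pi16 call held in 18 of 36 alternatives and the Scara5 call in 21 of 35. The Cd248, Gsn and Pdgfra calls held in 34, 31 and 32 of 36. The mean of the 14 ranged from 1.69 to 2.03 in controls and from 1.50 to 1.82 at the top dose. With median centring, which put the median of all genes at 0.35, the 5 fallen markers were at -0.50, -0.36, 0.05, 0.41 and 0.18. There they did not pass (adjusted p = 0.23, 0.26, 0.90, 0.40 and 0.60). All but Gsn lay under that median, a comparison that was not tested. Of 9 smooth muscle and myofibroblast markers 1 fell at the top dose, where 1.51% of all genes did: Acta2, by 0.62 ± 0.14. With median centring Acta2 was at 0.22 and did not pass (adjusted p = 0.61). The mean of the 13 endothelial markers ranged from 4.28 to 4.57 in controls and from 4.28 to 4.60 at the top dose. Of the 13, Gpihbp1, a capillary lipase anchor, fell at the top dose by 1.42 ± 0.19, where 1.51% of all genes fell. The Gpihbp1 call held in 35 of 36 alternatives. With median centring Gpihbp1 was at -0.76 and did not pass (adjusted p = 0.12). Car4 rose at the middle dose by 0.66 ± 0.15, where 0.746% of all genes rose, a call that held in 16 of 36 alternatives. In the trend 2 of the 13 rose, where 2.82% of all genes did, and 2 fell, where 1.83% did. Kdr and Pecam1 rose by 0.47 ± 0.12 and 0.46 ± 0.13, and Ramp2 fell by 0.35 ± 0.10 beside Gpihbp1. The Kdr, Pecam1 and Ramp2 calls held in 25, 20 and 12 of 36 alternatives. Of 8 pericyte markers 0 passed, with a mean of 0.88 to 1.39 in controls and 1.13 to 1.48 at the top dose. Of 6 alveolar macrophage markers 0 passed at the top dose, and in the trend Marco rose by 1.85 ± 0.49 and Chil3 fell by 1.40 ± 0.39. The Marco and Chil3 trend calls held in 28 and 18 of 36 alternatives. No marker of the alveolar type 1, alveolar type 2, mesothelium or cartilage lists passed in any comparison. Their part in the collagen differences was not tested.

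Fat and heart or skeletal muscle markers varied between pieces of lung, and their means were higher in controls than at each dose. In controls and at the rising doses the means were 2.45, 0.72, 1.80 and 1.24 for fat markers. They were 2.93, 1.63, 2.77 and 1.45 for heart muscle and 0.96, -0.69, -0.27 and -0.59 for skeletal muscle. The skeletal muscle mean of the controls includes 5.18 in control 5. For fat and heart muscle the groups overlapped between mice. The mean of 7 fat markers was 3.98 and 3.52 in controls 4 and 5, 3.20 in mouse 13 and 3.27 in mouse 20, and 0.35 to 2.53 in the rest. Without these 4 mice, a set left out after the data were seen, Col4a1 differed at the top dose by 0.84 (adjusted p = 0.0039), Col18a1 by 0.87 (adjusted p = 0.016), Col4a2 by 1.03 (adjusted p = 0.0052) and Col4a3 by 0.67 (adjusted p = 0.037), while Col5a3 was at -0.55 (adjusted p = 0.061). The controls left still had a higher mean fat marker ratio than the top-dose mice left. Mouse 20 was in this set, and leaving it out alone gave 0.99 for Col4a2 and 0.64 for Col4a3. The part of fat and muscle tissue in the collagen differences was not tested. The number of lung spots well above background ranged from 19777 to 27279 per array. Col4a1 and Col18a1 passed at the top dose in 36 of 36 alternatives, at 0.65 to 1.38 and 0.76 to 1.49.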

How the data were processed

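Lung RNA of 19 mice was measured on 2-colour Agilent arrays with no dye swap. Spot intensities were deposited as Feature Extraction 10.7.3.1 output, per the file headers, and median spot and local background intensities were used. The deposited flags for spots well above background are 0 or 1. The authors' deposited log2 ratio table, which correlated at 0.995 to 0.998 with ratios recomputed here, served as an alternative; how it was centred is not stated in the sources. In limma 3.58.1 (R 4.3.3), background was corrected by normexp (offset 50, which compresses folds of dim spots) and arrays were normalized by loess. Outlier spots (0.29%) were left out and spots of a probe averaged. Probes were named by RefSeq accession (assembly GRCm38.p6). Each gene was represented by its brightest probe past the filter. A mean per dose group was fitted over all arrays (lmFit, eBayes), and dose as a number in a second fit, with Benjamini-Hochberg adjustment over 19315 genes at 0.05. The script was tested on simulated data. Nothing says more of the replicates than that each mouse has its own number. Named genes were every collagen past the filter and, from each related list, genes past the threshold in at least 1 comparison, at most 10. The members and lists were chosen with earlier results of these data known. The 36 alternatives covered background correction, scaling, filters, probe rule, slide, scan day, array quality, the authors' values and leaving out mice. Of the 36, 19 left out 1 mouse each. Aquantile scaling between arrays, also among them, leaves the log2 ratios unchanged and so repeats the main fit. One gene of the related lists is not reported here.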

Additional observations from a re-analysis of the deposited data

Results flagged for a closer look

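In 9 of the 120 gene and dose groups checked, 1 mouse stood far from the others of its group; chance alone gives about 1 in 20. Among controls, Col5a1 was -1.82 in mouse 3, against -2.25 for the nearest, and Col7a1 was 0.89 in mouse 5, against -0.19. At 25 mg/kg/day, Col23a1 was 2.33 in mouse 9 and Col27a1 0.63 in mouse 8, each the highest. At 50 mg/kg/day, Col27a1 was 0.95 in mouse 13 and Col5a2 -0.75 in mouse 12, the highest, and Col26a1, a dim gene, was -0.27 in mouse 12, the lowest. At 75 mg/kg/day, Col5a3 was -0.94 in mouse 17, against -1.47 for the nearest, and Col6a1 was -2.01 in mouse 20, against -1.32. The arrays of control 3, mouse 12 and mouse 20 were among the 4 that the Feature Extraction quality report marked.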

How the results depend on the processing

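Mice could not be paired by number, because every mouse had a replicate number of its own and no number was shared between dose groups. Slide, which grouped mice of several doses, was fitted as a block among the alternatives. Over 36 alternatives Col4a1 and Col18a1 kept their calls at 75 mg/kg/day and in the trend. Centring each array on its median put the all-gene median at 0.148, 0.137, 0.351, 0.201 and 0.318 in the comparisons at 25, 50 and 75 mg/kg/day, 75 against 25 and the trend, and the collagen medians at 0.170, 0.240, 0.453, 0.199 and 0.410; the collagen counts were then 0, 0, 3, 0 and 6, all higher. Requiring all 19 arrays above background moved the median at 75 mg/kg/day to 0.099 (22 genes). Without the marked arrays the medians at 25 and 50 mg/kg/day were 0.094 and 0.200. One collagen, Col5a3, passed at the middle dose when slide was a random block or arrays were weighted. With array weights 5 passed at 75 mg/kg/day. One, Col4a1, passed between 75 and 25 mg/kg/day with processed signals, slide as a fixed or random block, scan day, without the marked arrays, with array weights, and without controls 4 and 5 and mice 13 and 20. Leaving out 1 mouse at a time gave 0 to 1 collagens at 50 mg/kg/day (1 without mouse 17), 2 to 5 at 75 mg/kg/day and 0 to 1 between the latter and 25 mg/kg/day (5 and 1 without mouse 20). The collagen medians then ranged from -0.039 to 0.040 at 25, 0.037 to 0.136 at 50 and -0.047 to 0.045 at 75 mg/kg/day, -0.058 to 0.023 between 75 and 25 mg/kg/day and -0.022 to 0.050 in the trend. The cause of these shifts was not tested. Dim spots limit Col25a1 and Col26a1 most.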
